A study of Mus musculus with 8 samples.

Results

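The collagens and extracellular matrix genes described here are 46 genes chosen by symbol. They comprise fibrillar collagens, basement membrane components, fibril-associated collagens, matrix glycoproteins and proteoglycans, collagen-folding and crosslinking enzymes, and markers of stromal cells. A probe was assigned to a member where its RefSeq accession mapped to the symbol. By that rule 45 of the 46 had a probe, 63 probes in all, out of 20660 named genes on the array. Of these, 43 had a probe above background on at least 4 of the 8 arrays and were tested, among 14209 genes tested in all. Col12a1, a fibril-associated collagen, had no named probe. Col5a2, a chain of type V collagen, was not above background on any of the 8 arrays, and Postn, the matricellular protein periostin, was above background on 2 of 4 control arrays and 0 of 4 cinacalcet arrays.

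Whole kidneys of mice labelled male and 12 weeks old were compared between 4 samples on standard chow and 4 samples given cinacalcet, a drug that sensitises the calcium-sensing receptor to calcium. The dose was 1 mg per g body weight for 5 days, after which the kidneys were snap frozen. No strain, genotype or vehicle is given in the sources used here. Each sample was hybridised to a single-colour Agilent array, and all 8 arrays lay on 1 slide read in 1 scan. A level below is the log2 signal of a gene's brightest probe relative to the 75th percentile of its array, so levels compare arrays for 1 gene and not genes with each other. A difference is the cinacalcet mean minus the control mean on that log2 scale, with its standard error (SE) from limma, and a gene passed where limma's Benjamini-Hochberg adjusted p over all 14209 genes was under 0.05. The labels do not say that each sample came from its own animal, so the p-values cover only how much these samples vary.

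Fibrillar collagens are made as procollagen chains that are hydroxylated and folded in the endoplasmic reticulum, secreted, trimmed and crosslinked into the fibres of the interstitium. In the kidney they come mainly from interstitial fibroblasts, pericytes and the walls of vessels, and they accumulate in fibrosis. Basement membranes are separate sheets of type IV collagen, laminin, nidogen and perlecan under the tubular and glomerular cells.

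Some arrays stood apart from their labels or from their group. The 4 Y-linked genes measured (among them Kdm5d and Ddx3y) were not above background (0 of 4) on control 4, cinacalcet 2 and cinacalcet 3, while 3 or 4 of them were above background on each of the other 5 arrays, although all are labelled male. The sex marker Xist read 0.95, 0.46 and 0.73 on control 4, cinacalcet 2 and cinacalcet 3, and -6.99 to -4.22 on the other 5. The arrays at odds with their sex label are thus spread unevenly over the groups. Markers of kidney cells were present, with 23 of 25 listed genes above background on all 8 arrays. Of 11 fat markers 10 were tested, and their summed log2 signal was 6.55, 5.97, 5.68 and 7.93 on control arrays 1 to 4 and 4.85, 6.88, 5.00 and 5.88 on cinacalcet arrays 1 to 4. The fat marker Lep was not above background on enough arrays to be tested. Ucp1, the thermogenic protein of brown fat, was the fat marker that passed (10% of those tested, beside 4.64% of all genes). It was 5.73 log2 units lower with an adjusted p of 0.0140 (limma). Ucp1 was above background on 4 control and 2 cinacalcet arrays, so the size of that difference rests partly on signals near background. Macrophage markers (6 tested of 7) were lower for 5 genes (83.3%, beside 4.64% of all genes). The summed log2 signal of the 6 was 5.07 to 5.18 in controls and 4.40 to 4.73 with cinacalcet. That sum is weighted to its brightest gene, Csf1r (mean 4.90 in controls and 4.35 with cinacalcet). All 4 red cell genes were lower (100%, beside the same 4.64%), with summed log2 signal of 8.97 to 9.49 in controls and 6.54 to 8.30 with cinacalcet. In whole tissue, fewer cells of a type and less RNA per cell cannot be told apart.

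In all, 10 members were lower with cinacalcet, 1 was higher and 32 did not pass. The 10 lower are 23.3% of the members tested, beside 4.64% of all genes tested. The 1 higher is 2.33%, beside 3.37%, and calls in either direction made up 25.6% of members and 8.02% of all genes. The 10 lower include Col15a1, which was above background on the control arrays alone. Among genes above background on all 8 arrays, 9 of 40 members were lower, beside 5.3% of all genes. The median difference was -0.18 over the 43 members and -0.03 over all genes. The control and cinacalcet levels did not overlap for 11 members that were lower and 3 that were higher, beside 9.8% and 8.01% of all genes (17.8% in either direction). The members that were lower and did not overlap were the 10 that passed and Col4a1, and the higher ones were Pdgfra, Lama5 and Lox.

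**Figure D1:**
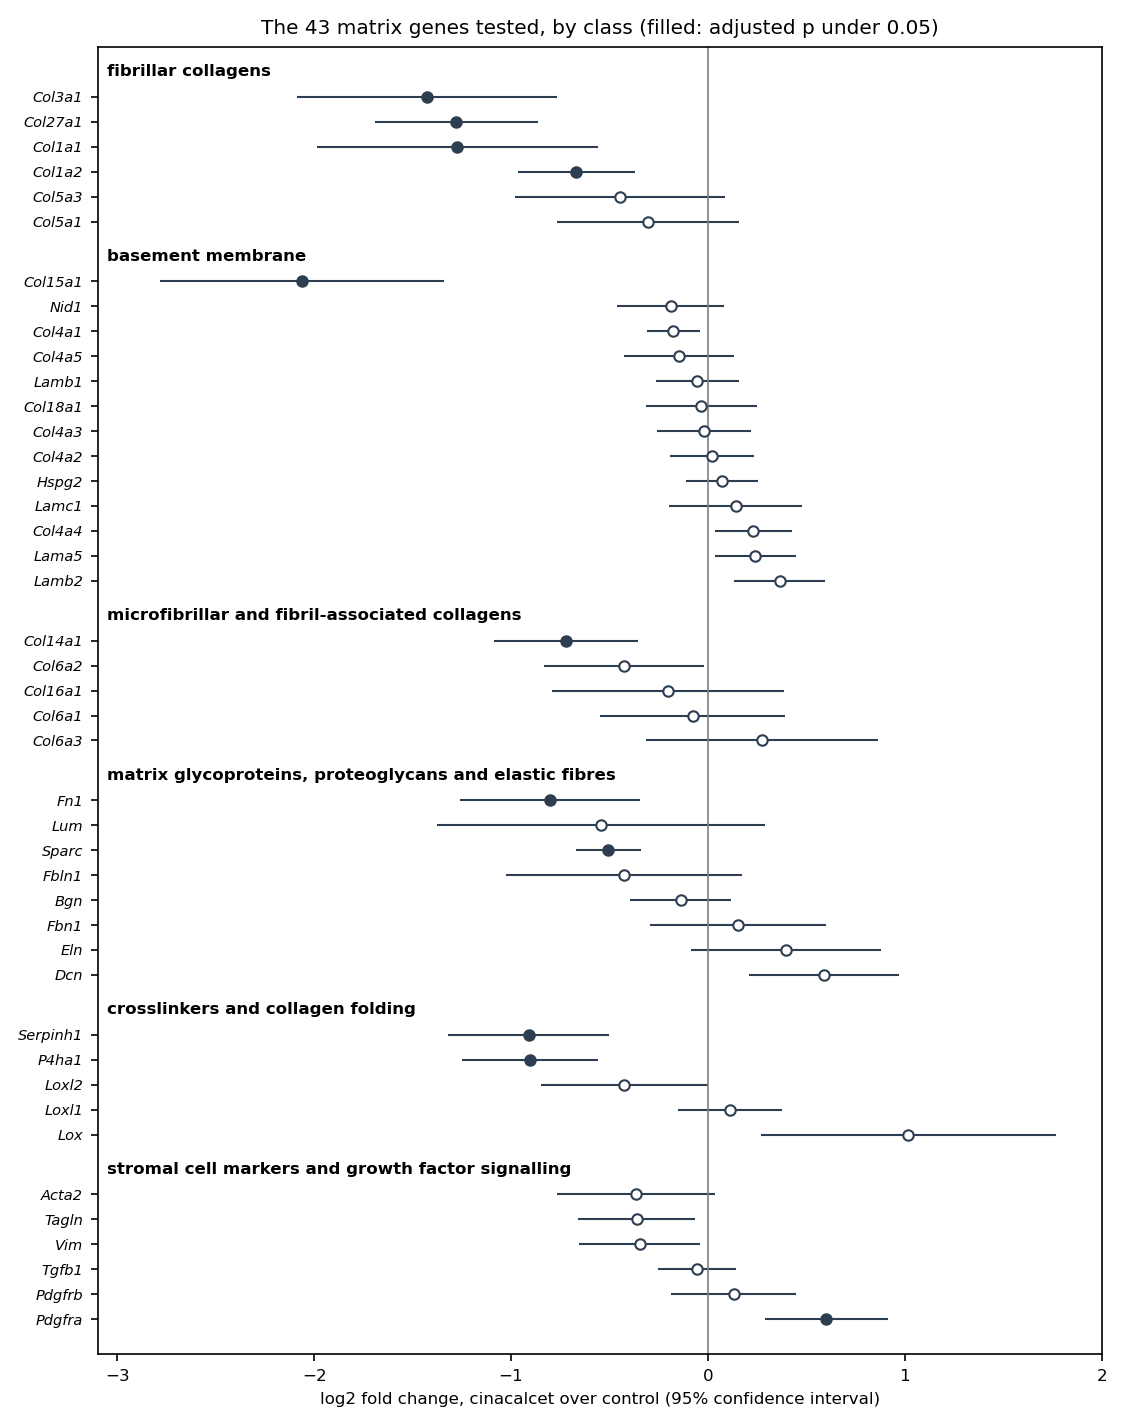
Difference in log2 signal, cinacalcet minus control, for each of the 43 matrix genes tested, grouped by class, with 95% confidence intervals from limma. Filled points passed an adjusted p of 0.05. The filled points are 10 to the left of 0 and Pdgfra to the right, and all 6 fibrillar collagens lie to the left of 0.

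The fibrillar collagens were the class with the lowest median difference, -0.97 over 6 tested genes. Of these, 4 fell (Col3a1, Col27a1, Col1a1 and Col1a2), none rose, and the other 2, Col5a1 and Col5a3, did not pass. The 4 are 66.7% of the class, beside 4.64% of all genes.

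Col1a1 encodes the alpha 1 chain of type I collagen, the main fibre of the interstitium. Its levels were -0.76, -0.59, -0.36 and 0.50 on control arrays 1 to 4 and -1.63, -0.94, -1.76 and -1.96 on cinacalcet arrays 1 to 4. Every cinacalcet array was below every control array, and control 4 was the highest. The difference was -1.27 (SE 0.31, limma adjusted p = 0.0467), or 2.42-fold lower. Col1a2, the partner chain in type I collagen, read 3.01, 2.99, 3.21 and 3.47 in controls and 2.60, 2.67, 2.34 and 2.40 with cinacalcet. The groups again did not overlap, and cinacalcet 3 and 4 were the lowest. Its difference was -0.67 (SE 0.13, limma adjusted p = 0.0248), or 1.59-fold lower.

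Col3a1, the single chain of type III collagen that forms fine reticular fibres, read -0.01, -0.35, 0.14 and 0.80 in controls. On the cinacalcet arrays it read -1.42, -0.63, -1.42 and -1.66. Cinacalcet 2 was the nearest to the controls and still below all 4. The difference was -1.43 (SE 0.29, limma adjusted p = 0.0286), a 2.69-fold lower level and the lowest estimate among the fibrillar collagens. Col27a1, a fibrillar collagen best known from cartilage, read 1.00, 0.76, 0.84 and 0.69 in controls and -0.33, -0.68, -0.83 and 0.02 with cinacalcet. The control arrays lay close together and the cinacalcet arrays were lower and more spread. The difference was -1.28 (SE 0.18, limma adjusted p = 0.0113), or 2.43-fold lower.

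The type V collagen chains, which start and limit the width of type I fibrils, had negative estimates that did not pass. Col5a1 differed by -0.30 (SE 0.20, limma adjusted p = 0.358) and Col5a3 by -0.45 (SE 0.23, adjusted p = 0.247). Both groups overlapped for each gene.

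The fibrillar calls were compared with the arrays that stood apart. On the 5 arrays with Y-linked signal (control 1, 2 and 3 against cinacalcet 1 and 4) the 4 collagens were still called lower, Col3a1 by 1.46 and Col1a1 by 1.23 on the log2 scale. There, 7 of the 43 members were lower and none higher, beside 5.45% and 2.4% of all genes (7.85% in either direction). The 7 include Col15a1, which entered the test through its control signals alone. With the fat marker level added to the model as a covariate, Col27a1 remained called (-1.25, adjusted p = 0.0309). Col1a1 (-0.98, 0.0892), Col1a2 (-0.57, 0.0540) and Col3a1 (-1.14, 0.0517) kept their sign and no longer passed. Under that covariate 5 of the 10 lower calls were kept and 3 members were higher, beside 3.73% and 2.33% of all genes (6.06% in either direction). Col15a1 is among these 5 as well.

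**Figure D2:**
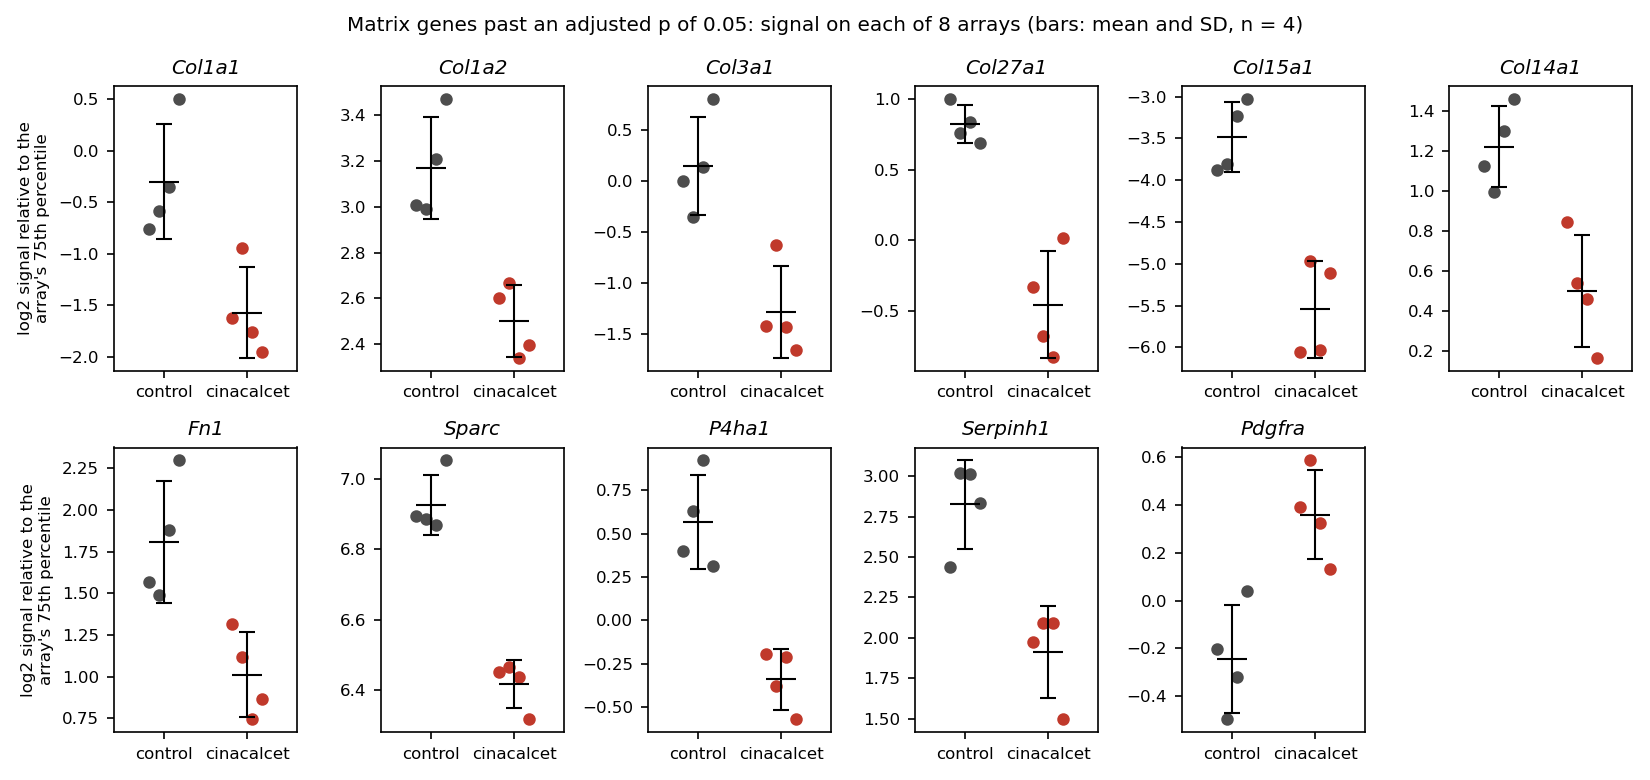
Level of each of the 11 matrix genes that passed an adjusted p of 0.05, on the 4 control and 4 cinacalcet arrays (points, left to right in replicate order), as log2 signal relative to the 75th percentile of the array. Bars are the mean and SD of 4 arrays, and the vertical axes differ between panels. In no panel do the groups overlap, and Pdgfra is the gene that is higher with cinacalcet.

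Of the 5 crosslinking and collagen-folding members 2 fell (40%, beside 4.64% of all genes), P4ha1 and Serpinh1. The class median was -0.42. P4ha1 is a catalytic subunit of the prolyl hydroxylase that stabilises the collagen triple helix. It read 0.40, 0.63, 0.92 and 0.31 in controls and -0.19, -0.38, -0.21 and -0.57 with cinacalcet. All 4 cinacalcet arrays were below all 4 controls. The difference was -0.90 (SE 0.15, limma adjusted p = 0.0163), or 1.87-fold lower. The other P4ha1 probe gave -0.85 and did not pass where all 29732 kept probes were fitted together (limma adjusted p = 0.0528).

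Serpinh1 encodes the collagen-specific chaperone of the endoplasmic reticulum. It read 2.44, 3.02, 3.01 and 2.83 in controls and 1.98, 2.09, 2.09 and 1.50 with cinacalcet. The groups did not overlap, with control 1 the lowest control and cinacalcet 4 the lowest of all. The difference was -0.91 (SE 0.18, limma adjusted p = 0.0257), or 1.88-fold lower. Both genes remained called with the fat covariate (P4ha1 -1.07, Serpinh1 -0.99). On the arrays with Y-linked signal P4ha1 was called and Serpinh1 was -1.09 with an adjusted p of 0.0579.

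The extracellular crosslinkers, the lysyl oxidases that join collagen and elastin chains, did not pass. Lox was above background on 2 of 4 control arrays and all 4 cinacalcet arrays. Its levels were -4.96, -4.40, -3.45 and -3.75 in controls and -3.19, -2.65, -3.35 and -3.29 with cinacalcet. All cinacalcet arrays were above all controls, by a small margin over control 3. The difference was 1.02 (SE 0.33, limma adjusted p = 0.0910), and 0.22 after normexp background correction, which adds an offset to low signals. Loxl2 differed by -0.42 (adjusted p = 0.179) and Loxl1 by 0.11 (adjusted p = 0.560), with overlapping groups in both.

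Promoter sequence is shown for 2 fibrillar collagens and 2 collagen-folding genes that fell. RefSeq windows on GRCm38.p6 were found for 31 of the 46 members, 7 of them among the 10 genes that fell. Each line gives the 250 bases before the annotated start of the gene, read 5′ to 3′ on the gene's strand. Capitals mark the CCAAT box, the TATA box (TATAAA), the GC box (GGGCGG) and the hypoxia response element core (ACGTG) on either strand. The windows are chr6:4505368-4505617 (Col1a2, plus strand), chr1:45311288-45311537 (Col3a1, plus strand), chr10:59323046-59323295 (P4ha1, plus strand) and chr7:99353240-99353489 (Serpinh1, minus strand).
Col1a2: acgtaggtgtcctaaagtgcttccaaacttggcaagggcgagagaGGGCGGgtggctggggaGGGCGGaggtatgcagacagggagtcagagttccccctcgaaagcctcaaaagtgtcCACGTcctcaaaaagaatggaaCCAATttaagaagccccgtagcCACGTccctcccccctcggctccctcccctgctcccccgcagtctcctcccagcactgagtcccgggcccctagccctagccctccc
Col3a1: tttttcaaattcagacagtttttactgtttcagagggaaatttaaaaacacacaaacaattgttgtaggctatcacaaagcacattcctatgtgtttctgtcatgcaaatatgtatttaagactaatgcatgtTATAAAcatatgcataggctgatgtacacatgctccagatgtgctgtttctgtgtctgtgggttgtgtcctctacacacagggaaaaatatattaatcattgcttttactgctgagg
P4ha1: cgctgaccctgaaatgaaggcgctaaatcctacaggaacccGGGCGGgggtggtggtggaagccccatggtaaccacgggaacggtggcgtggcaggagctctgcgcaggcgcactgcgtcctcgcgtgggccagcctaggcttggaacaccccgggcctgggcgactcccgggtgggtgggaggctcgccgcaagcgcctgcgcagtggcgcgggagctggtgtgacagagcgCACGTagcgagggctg
Serpinh1: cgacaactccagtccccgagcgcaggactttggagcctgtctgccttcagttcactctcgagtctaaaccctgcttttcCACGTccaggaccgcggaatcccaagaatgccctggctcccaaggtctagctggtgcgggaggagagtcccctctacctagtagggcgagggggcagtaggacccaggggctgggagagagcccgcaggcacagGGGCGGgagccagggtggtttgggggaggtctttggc

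The ACGTG core of hypoxia response elements was in the windows of Col1a2, P4ha1 and Serpinh1, 3 of the 7 genes that fell and have a window. It was in 3 of the 24 other members with a window and in 16.6% of all 32851 windows. In P4ha1 it lies 16 bases before the start, on the opposite strand. The GC box GGGCGG was in 4 of the 7, in 15 of the 24 and in 32.7% of all windows. CCAAT was in Col1a2 alone of the 7, in 9 of the 24 and in 33.8% of all windows, and the TATA box TATAAA was in Col3a1 alone, in 2 of the 24 and in 12.4%. The Smad-binding CAGAC was in 5 of the 7, in 12 of the 24 and in 42.2% of all windows. The AP-1 site TGANTCA and the heat shock pair GAANNTTC were in none of the 7, in 1 of the 24 each and in 6.7% of all windows each. Members were counted as genes with a match in any of their windows, whereas the share of all windows counts single windows. These 7 motifs were chosen with the changes known, matches were not tested, and a match describes letters and not a bound site.

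The basement membrane genes had a median difference of -0.02 over 13 tested genes. Of these, 1 fell (7.69%, beside 4.64% of all genes), Col15a1, and none rose in limma (3 were higher at an unadjusted p under 0.05). The estimates were negative for 7 and positive for 6. Col15a1, a collagen that anchors basement membranes to interstitial fibrils, read -3.88, -3.80, -3.23 and -3.03 in controls and -6.06, -4.97, -6.03 and -5.11 with cinacalcet. It was above background on all 4 control arrays and on 0 of 4 cinacalcet arrays, so the low side has a bound and not a measured level. It entered the test through the control arrays alone. Its limma adjusted p of 0.0134, on the signals as read, therefore lends no support beyond that. The control mean was set against the lowest signals counted as above background (the higher of that and the probe's own on each array). By that bound the gene was at least 2.47-fold lower with cinacalcet. That bound holds for the processed signal. After normexp background correction the difference was -0.41 (limma adjusted p = 0.0397), so its size depends on how signals near background are treated. A further 2 probes of Col15a1 were not above background on any array. The call was kept with the fat covariate and where only arrays with Y-linked signal were used.

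Lamb2, a laminin beta chain of the glomerular basement membrane, read 1.62, 1.56, 1.48 and 1.81 in controls and 1.80, 2.13, 2.02 and 1.98 with cinacalcet. The groups overlapped by control 4 and cinacalcet 1. The difference was 0.37 (SE 0.10, limma adjusted p = 0.0638). Lama5, the laminin alpha chain of the mature glomerulus, differed by 0.24 (SE 0.09, adjusted p = 0.129). Its groups did not overlap, with controls at 3.81 to 3.96 and cinacalcet at 4.00 to 4.31.

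The type IV collagen chains form the network of the basement membrane. Col4a1 read 2.44 to 2.49 in controls and 2.24 to 2.33 with cinacalcet, without overlap. Its difference of -0.18 (SE 0.06, limma adjusted p = 0.0984) did not pass. Col4a2, its partner in the ubiquitous network, differed by 0.02. The glomerular chains Col4a3, Col4a4 and Col4a5 differed by -0.02, 0.23 and -0.15. The remaining genes were Lamb1 (-0.05) and Lamc1 (0.14), both laminin chains, the linker nidogen Nid1 (-0.19), perlecan Hspg2 (0.07) and Col18a1 (-0.03), the source of endostatin. None passed, and their groups overlapped. Probes of Col4a4, Nid1 and Hspg2 differed in sign, with a further probe at -0.10, 0.06 and -0.06.

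**Figure D3:**
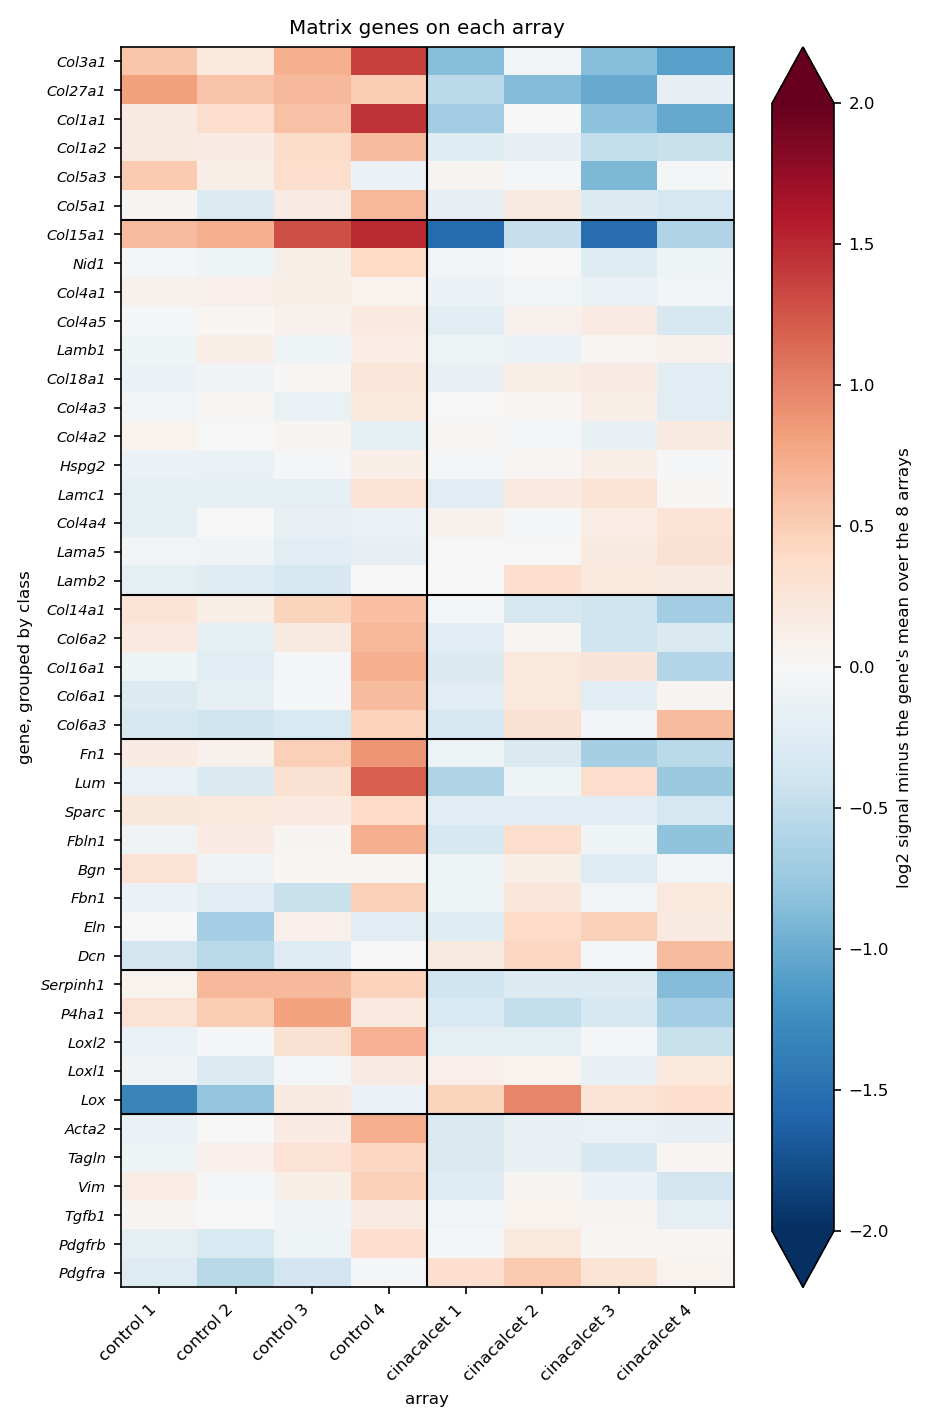
Log2 signal of each of the 43 matrix genes on each array, as the deviation from the gene's mean over the 8 arrays (red higher, blue lower, on a colour scale from -2 to 2). Horizontal lines separate the 6 classes in the order of the plot of differences and the vertical line separates control from cinacalcet arrays. The 4 fibrillar collagens that fell are above their mean on all controls and at or below it on all cinacalcet arrays, while Lum, Fbln1, Col16a1 and Acta2 are among the genes that are highest on control 4.

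Among the microfibrillar and fibril-associated collagens, 1 of 5 tested genes fell (20%, beside 4.64% of all genes) and the median difference was -0.20. Col14a1, which sits on the surface of type I fibrils, read 1.13, 1.00, 1.30 and 1.46 in controls and 0.85, 0.54, 0.46 and 0.16 with cinacalcet. The groups did not overlap. Its difference was -0.72 (SE 0.16, limma adjusted p = 0.0358), or 1.65-fold lower. A second Col14a1 probe gave -0.22 and did not pass. The call was lost with the fat covariate (-0.73, adjusted p = 0.0680) and where arrays without Y-linked signal were left out (-0.64, adjusted p = 0.129).

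Type VI collagen forms beaded filaments around cells. Col6a2 read -2.15, -2.53, -2.17 and -1.68 in controls and -2.55, -2.31, -2.74 and -2.63 with cinacalcet. The groups overlapped, with control 4 the highest. Its difference was -0.43 (SE 0.18, limma adjusted p = 0.162). Col6a1 (-0.08), Col6a3 (0.27) and the fibril-associated Col16a1 (-0.20) did not pass either, and each had control 4 above the other 3 controls.

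Of 8 tested matrix glycoproteins, proteoglycans and elastic fibre genes 2 fell (25%, beside 4.64% of all genes), and the class median was -0.28. Fn1 encodes fibronectin, the adhesive glycoprotein on which collagen fibrils assemble. It read 1.57, 1.49, 1.88 and 2.30 in controls and 1.31, 1.12, 0.74 and 0.87 with cinacalcet. The groups did not overlap and control 4 was again the highest. The difference was -0.80 (SE 0.20, limma adjusted p = 0.0482), or 1.74-fold lower. It did not pass on the arrays with Y-linked signal (-0.56, adjusted p = 0.117) or with the fat covariate (-0.69, adjusted p = 0.103).

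Sparc, a collagen-binding glycoprotein needed for procollagen processing, read 6.89, 6.89, 6.87 and 7.05 in controls and 6.45, 6.47, 6.44 and 6.32 with cinacalcet. Both groups were tight and well apart. The difference was -0.51 (SE 0.07, limma adjusted p = 0.0113), or 1.42-fold lower. A second probe also gave -0.51 and did not pass where all 29732 kept probes were fitted together (limma adjusted p = 0.0736). The call of the gene held with the fat covariate (-0.48) and also where arrays without Y-linked signal were left out (-0.50).

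None of the 3 small leucine-rich proteoglycans, which coat collagen fibrils, passed in limma (Dcn was higher at an unadjusted p under 0.05). Decorin, Dcn, read 3.86, 3.69, 3.98 and 4.22 in controls and 4.41, 4.65, 4.19 and 4.86 with cinacalcet. Control 4 and cinacalcet 3 overlapped. The difference was 0.59 (SE 0.17, limma adjusted p = 0.0674), and with the fat covariate it was 0.77 and passed (adjusted p = 0.0317). Lumican, Lum, differed by -0.54 (adjusted p = 0.364) and biglycan, Bgn, by -0.14 (adjusted p = 0.446). The elastic fibre genes Eln (0.40) and Fbn1 (0.15) and the microfibril-binding Fbln1 (-0.43) did not pass, and Eln was above background on 2 of 4 control arrays and all 4 cinacalcet arrays.

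Of the 6 stromal markers and growth factor genes, 1 rose (16.7%, beside 3.37% of all genes). None fell in limma (2 were lower at an unadjusted p under 0.05) and the median was -0.20. Pdgfra is the platelet-derived growth factor receptor of interstitial fibroblasts. It read -0.20, -0.50, -0.32 and 0.04 in controls and 0.39, 0.58, 0.32 and 0.13 with cinacalcet. Every cinacalcet array was above every control, with a narrow gap between control 4 and cinacalcet 4. The difference was 0.60 (SE 0.14, limma adjusted p = 0.0385), or 1.52-fold higher. It was 0.71 and passed with the fat covariate, and 0.60 with an adjusted p of 0.0542 on the arrays with Y-linked signal.

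Tagln, an actin-binding protein of smooth muscle and myofibroblasts, read 3.54, 3.73, 3.91 and 4.05 in controls and 3.34, 3.47, 3.30 and 3.66 with cinacalcet. Cinacalcet 4 overlapped the controls. The difference was -0.36 (SE 0.13, limma adjusted p = 0.118). The myofibroblast actin Acta2 differed by -0.37 (adjusted p = 0.215) and the mesenchymal filament Vim by -0.35 (adjusted p = 0.139). Pdgfrb, the pericyte receptor, differed by 0.13 (adjusted p = 0.571). Tgfb1, the growth factor that drives collagen synthesis in fibroblasts, differed by -0.06 (SE 0.09, adjusted p = 0.696, 95% confidence interval -0.26 to 0.14).

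Markers of the cells that make matrix were counted on separate lists. None of the 6 fibroblast markers tested (median -0.08, lowest adjusted p = 0.136) and none of the 6 smooth muscle markers (median -0.04, lowest adjusted p = 0.0594) passed in limma, with 2 and 3 of them at an unadjusted p under 0.05. The fibroblast differences ran from -0.67 to 0.80. Of 6 mesangium and pericyte markers (median -0.06) 1 fell, 16.7% beside 4.64% of all genes. This was Ren1, at -0.79 (SE 0.13, limma adjusted p = 0.0183) without overlap of the groups. The fibroblast list summed to 2.08 to 2.89 in controls and 1.99 to 2.53 with cinacalcet. The fibrillar collagens summed to 3.61, 3.53, 3.75 and 4.04 in controls and 3.00, 3.12, 2.73 and 2.86 with cinacalcet, without overlap. The part of fat, macrophage and red cell signal in the lower collagen levels was not tested beyond the fat covariate.

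**Figure D4:**
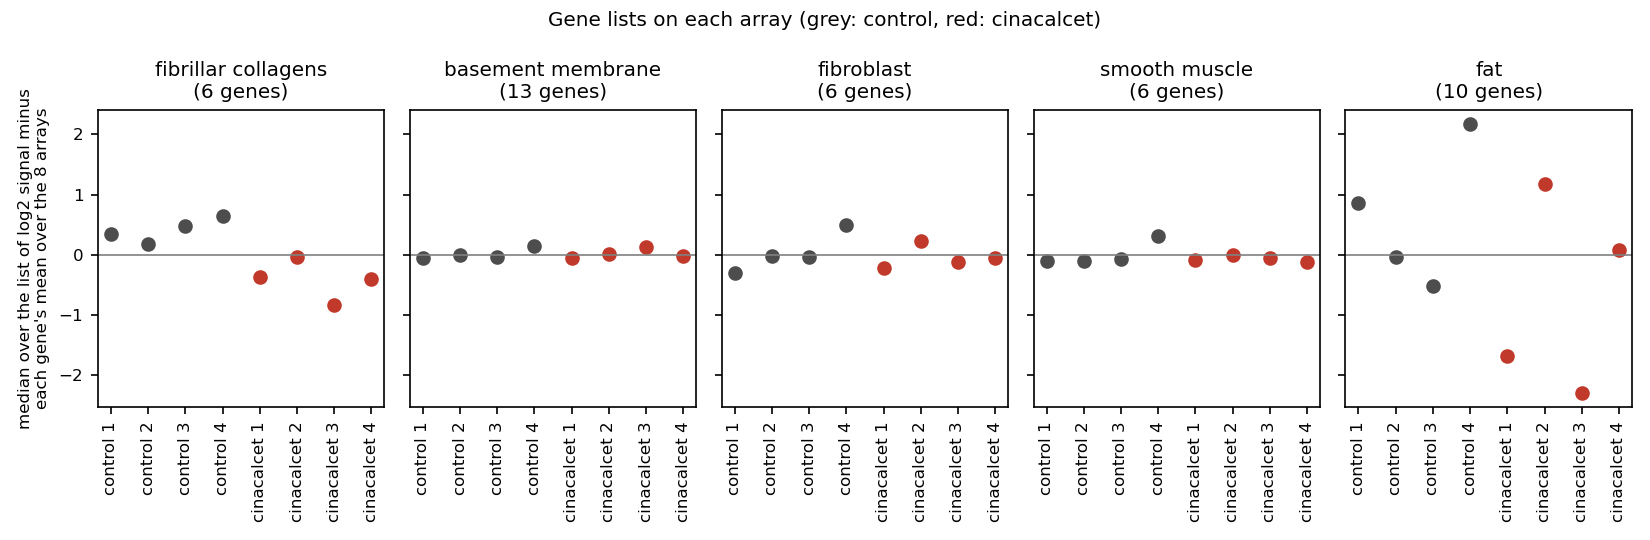
Median over each gene list of the log2 signal minus each gene's mean over the 8 arrays, for control (grey) and cinacalcet (red) arrays. The fibrillar collagen medians run from 0.19 to 0.65 in controls and from -0.84 to -0.04 with cinacalcet, whereas the basement membrane, fibroblast, smooth muscle and fat medians overlap between groups. The macrophage and red cell lists, not plotted, do not overlap either. Their medians are 0.31 to 0.52 and 0.68 to 1.35 in controls, and -0.63 to -0.01 and -1.89 to -0.003 with cinacalcet. Some matrix lists not plotted are also without overlap. Crosslinkers and collagen folding run from -0.08 to 0.31 in controls and from -0.44 to -0.15 with cinacalcet. Collagen modification runs from 0.01 to 0.19 and from -0.16 to -0.05, and matrix breakdown from 0.02 to 0.24 and from -0.20 to -0.07. The remaining matrix lists overlap.

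Other genes of collagen turnover and signalling that are not among the 46 were read from a separate list of 115 symbols. Of 102 tested, 4 rose, 8 fell and 90 did not pass (11.8% called, beside 8.02% of all genes), with a median of -0.12. In collagen modification 1 of 17 fell (5.88%, beside 4.64% of all genes), and the prolyl and lysyl hydroxylase genes P4ha2, P4ha3, Plod1, Plod3 and P3h1 and the folding factors P4hb, Crtap and Ppib did not pass. This was Plod2, the lysyl hydroxylase that prepares collagen for crosslinking, which read -0.56, -0.14, -0.37 and -0.53 in controls and -0.90, -1.58, -1.54 and -1.45 with cinacalcet. The groups did not overlap, and the difference was -0.97 (SE 0.17, limma adjusted p = 0.0191).

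Among proteases and their inhibitors 3 of 19 fell (15.8%, beside 4.64% of all genes) and none rose in limma (2 were higher at an unadjusted p under 0.05). They were the sheddase Adam10 (-0.38, SE 0.07, limma adjusted p = 0.0240), the stromelysin Mmp11 (-0.69, SE 0.15, adjusted p = 0.0323) and Mep1b, a brush border meprin of the proximal tubule (-1.22, SE 0.27, adjusted p = 0.0372). The gelatinase Mmp2 (-0.14) and the metalloproteinase inhibitor Timp1 (0.45) did not pass. Of 16 matrix receptors, the integrin chain Itgb3 rose (0.88, SE 0.16, limma adjusted p = 0.0225) and the hyaluronan receptor Cd44 fell (-1.07, SE 0.25, adjusted p = 0.0403). Each is 6.25% of that list, beside 3.37% of all genes higher and 4.64% lower.

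In the transforming growth factor beta and platelet-derived growth factor pathways, 2 of 21 genes rose (9.52%) and 1 fell (4.76%), beside 3.37% and 4.64% of all genes. The receptors Tgfbr1 (0.38, SE 0.07, limma adjusted p = 0.0247) and Tgfbr3 (0.46, SE 0.11, adjusted p = 0.0401) rose, and the ligand chain Pdgfb fell (-0.31, SE 0.07, adjusted p = 0.0414). Ccn2, a matrix-inducing target of transforming growth factor beta, differed by -0.11 and did not pass. Of 29 other matrix genes, 1 rose (3.45%) and 2 fell (6.9%), beside the same 3.37% and 4.64%. Ecm1, a secreted glycoprotein that binds perlecan and fibulin, read 5.72, 5.81, 5.70 and 5.87 in controls and 6.73, 6.92, 6.53 and 6.87 with cinacalcet. The groups were far apart relative to their spread, with a difference of 0.99 (SE 0.10, limma adjusted p = 0.00789). Mfap4, a microfibril-associated glycoprotein (-1.11, SE 0.20, adjusted p = 0.0224), and Lama4, the laminin alpha chain of vessel walls (-0.56, SE 0.11, adjusted p = 0.0291), fell.

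The same checks were made for the 12 pathway genes that passed. Tgfbr1, Tgfbr3, Pdgfb and Cd44 did not pass with the fat covariate (limma adjusted p = 0.0539, 0.0684, 0.0577 and 0.0711) or without the arrays lacking Y-linked signal (0.0776, 0.0604, 0.119 and 0.120). Plod2 (-0.82, adjusted p = 0.0725) and Itgb3 (0.88, adjusted p = 0.0779) were lost in the second check alone, and Mmp11 (-0.68, adjusted p = 0.0654) with the fat covariate alone. Ecm1, Mfap4, Lama4, Adam10 and Mep1b passed in both. After normexp correction Cd44 was -0.32 and did not pass (adjusted p = 0.0836), and Mfap4 (-0.54) and Lama4 (-0.36) were smaller and passed.

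The number of calls depended on single arrays. Leaving out 1 array at a time, Col27a1, Col15a1 and Sparc stayed called lower in all 8 fits, P4ha1 in 6, Serpinh1 in 4, Col1a2, Col3a1, Col14a1 and Fn1 in 2 each, and Col1a1 in 1. Col15a1 entered these fits through its control signals alone. Pdgfra stayed called higher in 2, without control 4 and without cinacalcet 4. The 10 lower genes became 5 without control 1, 3 without control 2 and 4 without control 3, beside 1.24%, 0.901% and 0.908% of all genes called lower. They were 8, 4, 4 and 5 without cinacalcet 1, 2, 3 and 4, beside 3.77%, 1.17%, 1.11% and 2.13%, and 10 without control 4. Beside Col27a1, Col15a1 and Sparc, P4ha1 was called without control 1, control 3, cinacalcet 3 or cinacalcet 4, Serpinh1 without control 1 or cinacalcet 4, and Col3a1 without cinacalcet 2, and without cinacalcet 1 the calls lost were Col1a1 and Col3a1. Without control 4, 3 members were higher, beside 15.8% of all genes lower and 7.84% higher (23.6% in either direction). The highest adjusted p in these fits was 0.122 for Col1a1, 0.0789 for Col1a2, 0.0812 for Col3a1, 0.103 for Col14a1, 0.130 for Fn1, 0.0818 for Serpinh1, 0.0574 for P4ha1 and 0.112 for Pdgfra (limma). All 10 genes kept a negative difference in each of these fits. Of the pathway genes, Ecm1 stayed called in all 8 fits, Mfap4 in 5, Plod2 in 4, Itgb3 and Tgfbr3 in 3, Lama4, Cd44, Adam10, Mmp11, Mep1b and Tgfbr1 in 2 and Pdgfb in 1. Where a pathway gene lost its call, its highest adjusted p was between 0.0624 (Plod2) and 0.119 (Pdgfb). With Y-linked signal as a block, 15 members were lower and 2 higher, beside 10.4% and 6.64% of all genes (17% in either direction). The 10 were all kept, joined by Col16a1, Fbln1, Loxl2, Lum and Vim, and Lamb2 joined Pdgfra.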

How the data were processed

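Each array file holds the scanner intensity deposited by the authors, made with Agilent Feature Extraction 11.0.1.1 per the file headers (9.5 per the submitters' processing notes), background-corrected by that software. Control spots and outlier flags were left out, spots of a probe averaged, and log2 taken of the processed signal minus the array's 75th percentile. Of 55681 probes, 27235 mapped to 1 gene through RefSeq accessions. A probe entered the fit if above background on 4 or more of 8 arrays, the brightest probe stood for its gene, and cinacalcet was compared with control by lmFit and eBayes in limma 3.58.1 (R 4.3.3), checked on simulated data. The 75th percentile ranged from 202.9 to 257.1, no spot was saturated, and the share well above background ranged from 51.8 to 58.0%. The number of arrays limits the precision.

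The members and lists were chosen with earlier results of these data known. Values on every array are given for members past the threshold and, where fewer than 2 of a class passed, for those of lowest p up to 2 a class, with a few further members described after their values were seen. Of the other pathway genes, those that passed are named, up to 4 a list. Alternatives tried were background correction, quantile normalization, filters, averaging of probes, blocks and leaving out arrays, and the fat covariate, which was chosen after seeing the data.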

Additional observations from a re-analysis of the deposited data

Results flagged for a closer look

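Among 86 groups of 4 arrays, 5 held an array whose gap to the nearest of the others exceeded Dixon's 95% critical value, as a share of the group's range, and chance alone flags about 1 in 20 groups. Control 4 stood above the other controls for Lamc1 (level 1.85, gap 0.97 of the range), Col6a3 (1.49, 0.891) and Sparc (7.05, 0.865). Cinacalcet 3 was below the other cinacalcet arrays for Col5a3 (-3.16, 0.906), and cinacalcet 1 was below them for Acta2 (2.11, 0.838).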

How the results depend on the processing

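Each result was recomputed under 21 other settings. The 10 lower members kept their sign in every setting in which they were tested, and none of the 26 genes named by the rule reversed. Among the members that did not pass, Col18a1, Col4a2, Col4a3, Col6a1, Col16a1, Lamb1, Tgfb1 and Eln changed sign in at least 1 setting. The count of lower members was 4 without a filter on dim probes, 15 with Y-linked signal as a block, 5 with the fat covariate, 0 within slide row 1, 0 within slide row 2, and 3 to 10 when leaving out 1 array. Of all genes, 1.02% were lower without the filter, 10.4% with the Y-linked block and 3.73% with the fat covariate. The main count of 1 higher member was 2 with normexp, 3 with quantile normalization, 0 without the filter, 3 with trend and robust eBayes, 2 with slide row as a block, 0 within each row, 2 with the Y-linked block, 0 on the arrays with Y-linked signal, 3 with the fat covariate, and 0 to 3 when leaving out 1 array. In either direction, 7.61% of all genes were called with normexp, 10.2% with quantile normalization, 9.7% with trend and robust eBayes and 6.48% with slide row as a block. Over all genes, the 1139 calls became 367 without the filter, 1 within row 1, 0 within row 2 (limma, with 3860 and 1068 at an unadjusted p under 0.05), 2417 with the Y-linked block, and 218 to 3356 when leaving out 1 array.

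With the replicate block, 0 members were lower, 0 higher and 0 of all genes called (limma, 2869 at an unadjusted p under 0.05). Same-numbered arrays deviated with correlations of 0.34, -0.54, -0.36 and -0.56. Both arrays numbered 1 had Y-linked signal, whereas the arrays numbered 2, 3 and 4 differed in it between the groups. These correlations therefore cannot show whether the numbers pair samples. Single calls were lost for Fn1 with quantile normalization, Col14a1 with the mean of probes, Cd44 with normexp, and Col1a1, Col14a1, Fn1, Cd44, Tgfbr3 and Pdgfb with slide row as a block. The causes of these changes were not tested. Signals near background limit Col15a1, Lox, Eln and Ucp1.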
